A study of Nicotiana tabacum and Solanum tuberosum subsp. andigenum and Nicotiana sylvestris with 28 samples.

Results

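BEL5 of potato encodes a homeodomain transcription factor of the BEL1-like class, and it was read in leaves by 2 cDNA clones on a potato array. Of 32448 array spots, 4 carry the symbol BEL5 in the probe annotation, and they were the members examined here. They form 2 clones, each spotted at a pair of positions, of 10684 clones with a value. Clone A is printed at spots 148065 and 149924, and clone B at spots 159307 and 160151.

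BEL1-like proteins act in pairs with KNOX homeodomain proteins, and in potato BEL5 works with the KNOX protein POTH1 on genes of hormone metabolism, among them genes for gibberellin synthesis. BEL5 is known for an mRNA that is made in leaves and travels through the phloem to the stolon tip, where it favours tuber formation under short days. Phytochrome B and CONSTANS act on the same decision from the leaf, as brakes on tuberization in long days.

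The arrays asked how leaf transcripts change when day length changes. Potato (Solanum tuberosum subsp. andigena, which forms tubers in short days, SD) was moved from long days (LD) to SD for 1 or 15 days and set against plants kept in LD, with 3 biological replicates for each time. A potato line with antisense PHYB (α-PHYB), which lowers phytochrome B and forms tubers in any day length, was set against wild type (WT), both kept in LD, with 3 replicates. All α-PHYB plants came from 1 antisense line, and no clone has the symbol PHYB, so the lowering of its transcript was not checked here. Nicotiana tabacum MM, which is cv Hicks carrying the Maryland Mammoth allele and flowers in SD, and day-neutral Hicks itself were moved from LD to SD for 1 or 15 days, each against plants kept in LD. N. sylvestris, which flowers in LD, was moved from SD to LD for 1 or 15 days, against plants kept in SD. Each of these Nicotiana comparisons also had 3 replicates.

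Plants were harvested at 56 days of age, 14 h after lights on. Light lasted 16 h a day in LD, at an irradiance of 80 μmol photons, and 8 h in SD, at 160 μmol photons (per m2 and s), with 22 °C in both, so that day length and irradiance cannot be told apart. Leaves in LD were lit at harvest and leaves in SD were dark, and this too cannot be told apart from day length. The tissue was leaf (for potato, leaf with petiole), and in such bulk samples a ratio cannot tell fewer cells of a type from less RNA per cell.

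Each value is a log2 ratio of moved plants over kept plants, or of α-PHYB over WT. A value of 1 is a change of 2-fold, and 0 is no change. The deposit does not state the direction of its ratios. It was set so that F3H, GBSS, STUGE51 and PR1B have the signs given in the paper. A ratio says nothing of how much BEL5 mRNA a leaf holds, nor of how clone A compares with clone B in amount. Which stretch of the transcript either clone carries is not given in the sources used here, and hybridization by related BEL1-like transcripts was not tested. A clone passed the test where limma gave a p of at most 0.05 and a Benjamini-Hochberg adjusted p over all clones tested of at most 0.1, and it was called where its mean ratio also reached 1 in either direction.

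On all 28 arrays, 3602 to 9887 clones had a value. The MM replicate 2 arrays stood apart, with correlations of -0.15 to 0.29 over all clones with the MM arrays of other numbers. Replicate 2 of Hicks after 15 days had 0.04 to 0.41 (median 0.10) with Hicks arrays of other numbers. With Hicks replicate 2 of 1 day it had 0.05. The lowest correlation in N. sylvestris was -0.42, between replicate 2 of 1 day and replicate 1 of 15 days. Replicate 3 of α-PHYB had correlations of 0.32 and 0.45 with the other α-PHYB arrays, which had 0.77 with each other.

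Clone A was read at all 20 of its spot positions on the 10 potato arrays, and so was clone B. On the Nicotiana arrays clone A kept 33 of 36 spot values (91.7%) and clone B 15 of 36 (41.7%), where spots with a value on any array kept 45.2%. The readings of the 2 spots of clone A differed on potato arrays by a median of 0.05 and at most 0.26, and those of clone B by a median of 0.09 and at most 0.26. The median over all clones was 0.12. In Nicotiana the spots of clone A differed by a median of 0.23 and at most 0.56 (16 pairs). Those of clone B differed by a median of 0.35 and at most 1.32 (5 pairs), against a median of 0.16 over all clones. The spots of a clone thus read alike in potato, and less so in Nicotiana, whose RNA was hybridized to potato cDNA. Kept plants and WT carried the dye Cy3 on every array but the dye-swap repeat, and the dye term from that pair, Cy3 over Cy5, was 0.03 for clone A and -0.09 for clone B, with an SD of 0.18 over 8388 clones.

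**Figure D1:**
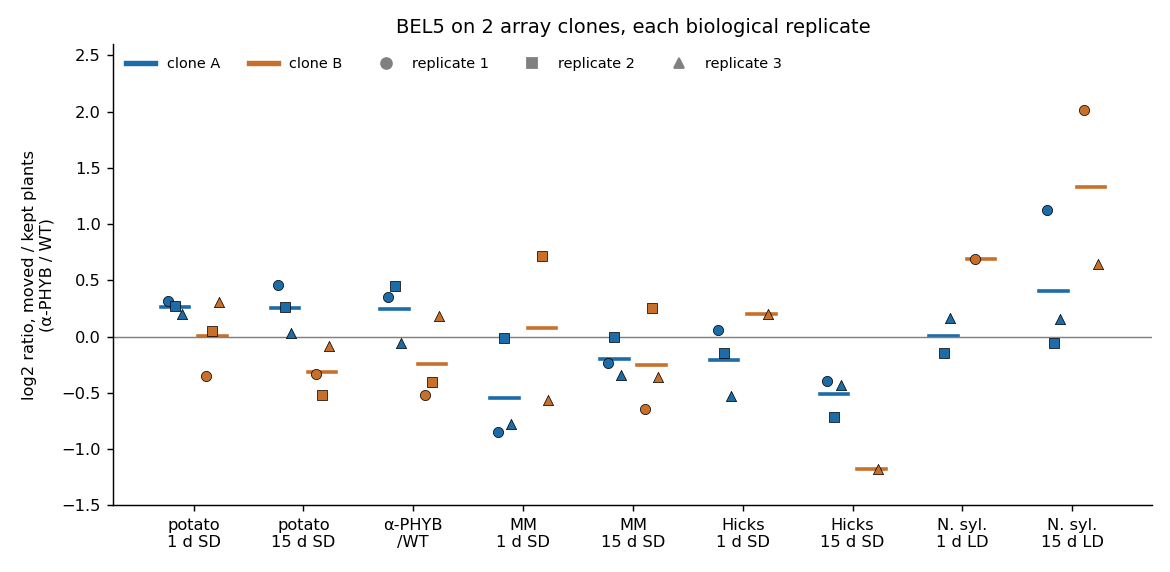
Log2 ratio of BEL5 (moved over kept plants, or α-PHYB over WT) on each biological replicate, for clone A (blue) and clone B (orange). Bars are means and symbols give the replicate number. All 6 potato values of clone A after the move lie above 0 and all 6 MM values lie below it, while clone B has values on both sides in potato and in MM.

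In potato moved to SD, clone A of BEL5 was slightly higher than in plants kept in LD. After 1 day of SD its log2 ratios were 0.31, 0.27 and 0.20 in replicates 1, 2 and 3. After 15 days they were 0.46, 0.27 and 0.03. All 6 ratios were above 0, and the values of the pair of days overlapped.

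The mean of clone A was 0.26 ± 0.06 after 1 day (SD of the replicates, n = 3) and 0.25 ± 0.22 after 15 days (n = 3). Neither day passed alone, with limma adjusted p of 0.132 and 0.196, while 34.4% and 35% of all clones passed. With both days together the mean was 0.26 ± 0.14 (n = 6), which is 1.19-fold, and it passed (limma SE 0.07, adjusted p = 0.0177).

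This pass was an ordinary one among potato clones. With both days together 55.2% of the 8426 clones tested passed (27.5% of those tested upward and the rest downward), and 46.8% had a mean farther from 0 than clone A. An exact two-sided sign-flip test of the 6 values gave p = 0.0312, the smallest that 6 values allow, and 0.0625 after Benjamini-Hochberg adjustment over the 4 such tests run. It takes the values as independent, although same-numbered arrays of the days moved together in potato and MM, and with the days averaged to 3 values it gave 0.25, the smallest that 3 values allow. Clone A no longer passed without replicate 1 of both days (mean 0.19, adjusted p = 0.12) and without replicate 2 (0.25, adjusted p = 0.101).

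None of the 16 BEL5 ratios with a value in every replicate was called, since none that passed reached a 2-fold change. These were 11 of clone A and 5 of clone B, and the others were not tested. Calls were made for 5.03%, 5.38% and 4.98% of clones in potato after 1 day, after 15 days and with both together, and for 2.4% in α-PHYB. The shares were 0.102%, 3.14% and 3.28% in MM and 2.95%, 0.27% and 1.3% in Hicks for the same times, and 3.76% in N. sylvestris after 15 days. Most clones were thus not called in any of these comparisons.

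The days did not separate for clone A. The difference, 15 days minus 1 day, was -0.01 with an SE of 0.16 (limma adjusted p = 1), in a test that 0.202% of clones passed.

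Clone B did not share this rise. Its log2 ratios after 1 day of SD were -0.35, 0.05 and 0.30 in replicates 1, 2 and 3. After 15 days they were -0.33, -0.52 and -0.08. Values on the first day lay on both sides of 0, and those after 15 days were all below it.

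The means of clone B were 0.00 ± 0.33 after 1 day and -0.31 ± 0.22 after 15 days (SD, n = 3 each). The limma adjusted p was 0.996 for 1 day and 0.123 for 15 days. Both days together gave -0.16 ± 0.31 (n = 6, adjusted p = 0.262). Without replicate 3, clone B passed downward after 15 days (-0.43, adjusted p = 0.0896) and over both days (-0.29, adjusted p = 0.0685). How many of all clones passed without replicate 3 was not counted. Without replicate 1 clone B had -0.06 over both days. The difference of 15 days minus 1 day was -0.32 with an SE of 0.20 (adjusted p = 1), although the unadjusted p for 15 days alone was 0.0473.

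Set against each other on the same arrays, clone A exceeded clone B in 5 of 6 potato replicates. The excess was 0.66, 0.22 and -0.10 after 1 day of SD. After 15 days it was 0.79, 0.79 and 0.11. Replicate 3 had the smallest excess on both days.

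The mean excess was 0.41 ± 0.39 (SD, n = 6), with an exact two-sided sign-flip p of 0.0625, or 0.25 after adjustment over 4 such tests. This comparison was chosen after the values were seen. With both clones averaged, BEL5 had a mean ratio of 0.05 ± 0.14 over the 6 replicates, 3 of them above 0. The difference between the clones thus did not pass, nor did the mean of clone B.

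**Figure D2:**
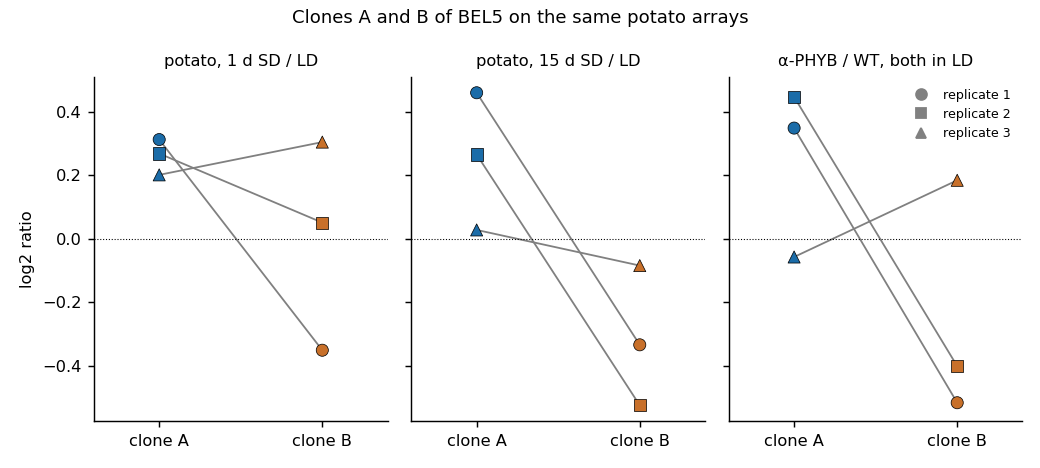
Log2 ratios of clones A and B of BEL5 on the same potato arrays, joined by a line for each replicate, after 1 day and 15 days of SD over LD and for α-PHYB over WT. Clone A lies above clone B in 7 of 9 replicates, the exceptions being replicate 3 of 1 day and replicate 3 of α-PHYB.

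With lower phytochrome B in LD, neither clone passed. The α-PHYB arrays have RNA extracts of their own in the labels, but their WT plants were kept in LD to the same age as the potato controls above, and whether plants were shared is not stated. The α-PHYB over WT log2 ratios of clone A were 0.35, 0.45 and -0.06 in replicates 1, 2 and 3. Those of clone B were -0.52, -0.40 and 0.18. Replicates 1 and 2 put the clones on opposite sides of 0, and replicate 3 turned both signs.

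The mean of clone A was 0.25 ± 0.27 (SD, n = 3, limma adjusted p = 0.314) and that of clone B -0.24 ± 0.38 (adjusted p = 0.391), while 14% of the 8463 clones tested passed. Without replicate 3, the array that stood apart, clone A had 0.40 (adjusted p = 0.0597) and clone B -0.46 (adjusted p = 0.0401), and both passed, in opposite directions. The share of all clones that passed in this fit of 2 replicates was not counted, and the 14% is from all 3. The part of that array in the result was not tested. Clone A minus clone B was 0.86, 0.85 and -0.24, with a mean of 0.49 ± 0.63 and an exact p of 0.5, where 3 values cannot go below 0.25. Both clones averaged gave 0.00 ± 0.08.

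In MM, clone A of BEL5 lay at or below 0 in SD. The log2 ratios after 1 day of SD were -0.85, -0.01 and -0.78 in replicates 1, 2 and 3. After 15 days they were -0.24, -0.003 and -0.34. On both days replicate 2 was the value nearest 0.

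The means were -0.55 ± 0.46 after 1 day and -0.20 ± 0.18 after 15 days (SD, n = 3 each), with limma adjusted p of 0.511 and 0.707. On those days 0.102% and 3.42% of all clones passed. In size, 13.9% of the clones had a mean farther from 0 after 1 day, and 61.4% after 15 days. Both days together gave -0.37 ± 0.37 (n = 6), 1.29-fold lower in SD, with an adjusted p of 0.134, where 22.6% of 4355 clones passed. An exact sign-flip test gave 0.0312 for these 6 values, all below 0, and 0.0625 after adjustment over the 4 tests, and 0.25 with the days averaged to 3 values, which cannot go lower.

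Leaving out replicate 2 of MM changed whether clone A passed after 1 day and over both days. Without it clone A had -0.82 after 1 day (limma adjusted p = 0.0314) and -0.55 over both days (adjusted p = 0.0153), and both passed. After 15 days it had -0.29 and did not pass (adjusted p = 0.555). The share of all clones that passed in these fits was not counted. For potato minus MM over both days that share was 49.2% without MM replicate 2 and 22.5% with all replicates. The days were not separated for clone A in MM, with 0.35 and an SE of 0.30 for 15 days minus 1 day (adjusted p = 1).

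In Hicks, clone A was lower in SD after 15 days on every array. The log2 ratios after 1 day of SD were 0.06, -0.15 and -0.53 in replicates 1, 2 and 3. After 15 days they were -0.40, -0.72 and -0.43. The values of the days overlapped, since replicate 3 of 1 day lay among those of 15 days.

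The means were -0.21 ± 0.30 after 1 day and -0.51 ± 0.18 after 15 days (SD, n = 3 each), with limma adjusted p of 0.392 and 0.269. On those days 23.7% and 0.27% of all clones passed. Both days together gave -0.36 ± 0.28 (n = 6), 1.28-fold lower in SD, with an adjusted p of 0.13, where 9.81% of 3914 clones passed. The exact sign-flip p was 0.0625, or 0.0833 after adjustment. In size the 15-day mean stood further out than most, since 13.2% of the clones had a mean farther from 0. Without replicate 2, an array of low correlations with the others, the 15-day mean was -0.41 (limma adjusted p = 0.291).

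In N. sylvestris moved to LD, clone A had no common direction. After 1 day of LD the ratios over plants kept in SD were -0.15 and 0.17 in replicates 2 and 3, and replicate 1 had no value. After 15 days they were 1.13, -0.06 and 0.15 in replicates 1, 2 and 3. Replicate 1 alone reached a 2-fold difference.

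The 15-day mean was 0.41 ± 0.63 (SD, n = 3, limma adjusted p = 0.374), while 4.29% of the 3028 clones tested passed. Without replicate 1 the 15-day mean was 0.05. With 2 values, the 1-day comparison was not tested, since a value in every replicate was asked for. The titles of these samples name a move from LD to SD, against the descriptions of their channels and the paper's methods, which were followed. GBSS encodes a starch synthase bound to granules. In the direction followed, its mean for LD over SD in N. sylvestris after 15 days was 2.21 (limma adjusted p = 0.0869). Its replicates had 3.850, 0.915 and 1.851. It was lower in SD over LD in potato (-1.22 at spot 134645) and MM (-1.10) over both days. Over all clones, the N. sylvestris 15-day means had correlations of 0.12 and 0.09 with potato after 1 and 15 days. For the same days these were -0.06 and -0.18 with MM, and 0.27 and -0.41 with Hicks. Which direction holds was not tested. With the titles' direction the 15-day mean of clone A for LD over SD would be -0.41.

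Clone B was too incomplete in Nicotiana for most tests. In MM it had 0.71 and -0.56 in replicates 2 and 3 after 1 day of SD, and -0.64, 0.25 and -0.36 in replicates 1, 2 and 3 after 15 days. The 15-day mean of -0.25 ± 0.46 had a limma adjusted p of 0.68. In replicate 3 of 15 days the first spot read 0.30 and the second -1.02, while replicates 1 and 2 had a value at the second spot only. With the second spot alone the 15-day mean was -0.47 (adjusted p = 0.483). MM replicate 2 was again the highest value on both days.

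Hicks gave clone B 1 value a day, both from replicate 3, which were 0.20 after 1 day and -1.18 after 15 days. N. sylvestris gave 0.69 after 1 day (replicate 1) and 2.01 and 0.64 after 15 days (replicates 1 and 3). Replicate 1 of 15 days was the highest N. sylvestris value of both clones.

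**Figure D3:**
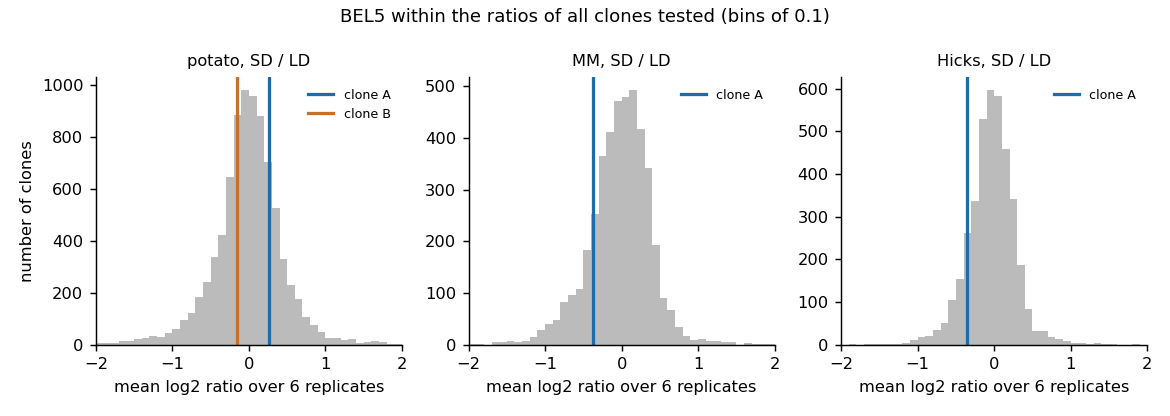
Number of clones by mean log2 ratio of SD over LD plants, both days together (6 replicates, bins of 0.1, axis from -2 to 2), in potato, MM and Hicks. Lines mark BEL5 clone A (0.26, -0.37 and -0.36) and, in potato, clone B (-0.16), all within the body of the distribution.

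Ordered by mean of moved over kept plants, which is LD over SD in N. sylvestris and SD over LD elsewhere, the ratios of clone A ran from 0.41 in N. sylvestris after 15 days through 0.26 and 0.25 in potato after 1 and 15 days, 0.25 in α-PHYB and 0.01 in N. sylvestris after 1 day. Below 0 came MM after 15 days (-0.20), Hicks after 1 day (-0.21), Hicks after 15 days (-0.51) and MM after 1 day (-0.55). The first place rested on 1 array, since that mean was 0.05 without replicate 1. With the direction of the titles the same value of moved over kept plants would be SD over LD. The replicates of all 8 neighbouring pairs in this order overlapped. Exact two-sided permutation tests of the neighbours gave p of 0.3 to 1, all 1 after adjustment, and 3 values against 3 cannot go below 0.10.

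Clone A of BEL5 was higher in SD over LD in potato than in MM by 0.81 after 1 day (SE 0.27, limma adjusted p = 0.326) and by 0.45 after 15 days (SE 0.23, adjusted p = 0.346). Neither day passed. The values did not overlap, with a lowest potato ratio of 0.20 against a highest MM ratio of -0.01 on 1 day. On 15 days these were 0.03 and -0.003. How many of all clones separate in this way was not counted, so nothing is read from it. The share of clones that passed was 0.268% on 1 day and 4.25% on 15 days.

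With both days together the difference between potato and MM was 0.63 (SE 0.17, limma adjusted p = 0.0199, 22.5% of clones passed). Same-numbered arrays of the days moved together in both biotypes, and with the replicate number as a block the difference did not pass (SE 0.23, adjusted p = 0.143). Without MM replicate 2 the 1-day difference was 1.08 (adjusted p = 0.0106). For clone B the difference after 15 days was -0.06 with an SE of 0.28 (adjusted p = 0.942).

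The comparison with Hicks was added after the values were seen. Clone A was higher in potato by 0.47 after 1 day (SE 0.19, limma adjusted p = 0.2, 7.88% of clones passed) and by 0.77 after 15 days (SE 0.20, adjusted p = 0.0842, 7.53% passed). Both days together gave 0.62 (SE 0.14, adjusted p = 0.0103, 16.6% passed), a difference that passed with the block too (adjusted p = 0.0114). The 15-day difference no longer passed without potato replicate 1, 2 or 3 (0.66, 0.76 and 0.88, with adjusted p of 0.292, 0.252 and 0.163) and without Hicks replicate 1 (0.82, adjusted p = 0.167). The potato arrays are the same in both contrasts. Potato RNA matches the potato cDNA and N. tabacum RNA does not fully, so the species and the fit to the array cannot be told apart.

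MM and Hicks, which differ by the Maryland Mammoth allele, were not separated by clone A. MM minus Hicks was -0.34 after 1 day (95% interval -0.999 to 0.32) and 0.32 after 15 days (-0.27 to 0.91). Both days together gave -0.01, with an interval of -0.43 to 0.40 (limma adjusted p = 1). All 3 intervals hold 0. Without MM replicate 2, the array that stood apart, the 1-day difference was -0.61 with an interval of -1.14 to -0.08 (adjusted p = 0.185). Among the 3 Nicotiana biotypes after 15 days, with N. sylvestris turned to SD over LD, the moderated F was 0.51 (adjusted p = 0.844). With the direction of the titles it was 4.21 (adjusted p = 0.194).

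BEL5 was next set beside the other genes of tuberization. Of 42 genes listed for that pathway, 4 have a symbol on the array, which are BEL5, CO, GA2OX1 and MADS16, and the last 3 are carried by 4 clones. In potato with both days together none of the 3 clones tested, of CO and MADS16, rose or fell by limma, while 55.2% of all clones passed. Their median ratio was -0.03 against 0.00 over all clones. Over both days none had an unadjusted limma p under 0.05, the lowest being 0.0584 for CO. After 15 days alone CO had an unadjusted p of 0.0357.

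CO, the CONSTANS relative that delays tubers in LD, was closest to the threshold. Its ratios after 1 day of SD were -0.41, 0.04 and 0.10. After 15 days they were -0.44, -0.37 and -0.13 (mean -0.32, SE 0.12, limma adjusted p = 0.101). The α-PHYB ratios were -0.01, 0.21 and 0.57 (mean 0.26, adjusted p = 0.311). CO thus lay below 0 in every 15-day replicate, as clone B of BEL5 did and clone A did not.

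GA2OX1, a gibberellin 2-oxidase that inactivates gibberellins, had too few values to test. It had -0.82 and -0.51 in replicates 2 and 3 after 1 day of SD, -0.52 in replicate 2 after 15 days and -0.71 in replicate 1 of α-PHYB. All 4 were below 0.

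MADS16, a MADS-box gene, was read on 2 clones. At spot 143290 it had -0.51, -0.43 and -0.42 in α-PHYB over WT and fell (mean -0.45, SE 0.10, limma adjusted p = 0.0725). At spot 151355 the α-PHYB mean was -0.25 (adjusted p = 0.235). After the move to SD the means of the first clone were -0.04 after 1 day and 0.04 after 15 days. It was the 1 clone of 3 tested that passed in α-PHYB, where 8.19% of all clones passed downward.

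**Figure D4:**
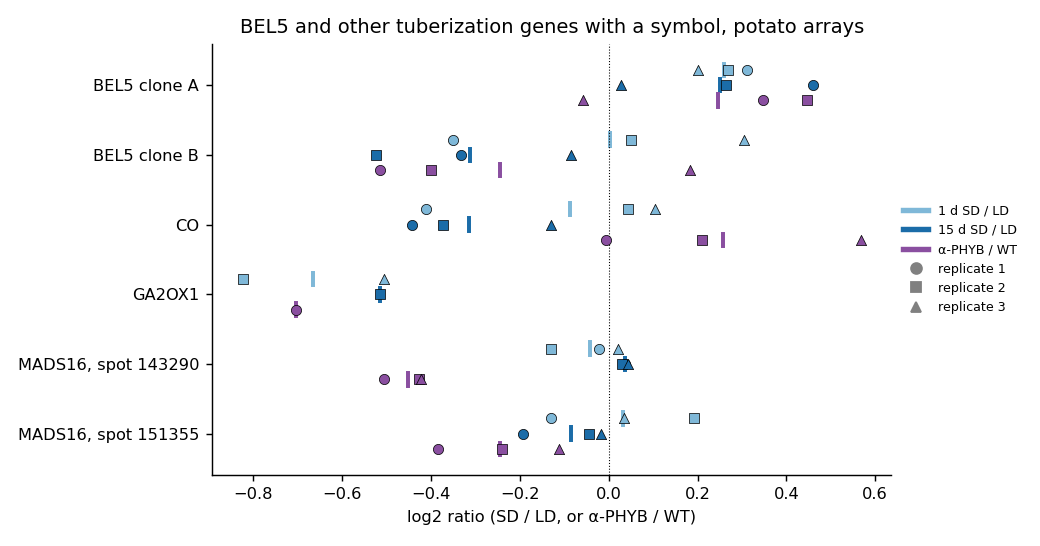
Log2 ratios of BEL5 and the other listed tuberization genes on potato arrays, for 1 day and 15 days of SD over LD and for α-PHYB over WT. Symbols are replicates and ticks are means. MADS16 at spot 143290 lies below 0 on all 3 α-PHYB arrays (-0.51 to -0.42) and near 0 after the move to SD, and GA2OX1 has 4 values, all below 0.

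Other lists held clones that passed in the same leaves. All 5 clones of the tuber and starch list, which carry GBSS, STP-1 and R1, fell in potato moved to SD with both days together (median -0.49), where 27.7% of all clones passed downward. GBSS had helped to set the direction. A list of 6 genes taken from earlier results of these data, among them F3H and STUGE51, which also set the direction, gave 6 clones of 9 that rose and 3 that fell. That list was chosen for changing, so nothing is read from its count. Of the 9 leaf markers, PSBR alone has a symbol here, and 1 of its 4 clones tested rose (0.77), near the 27.5% of all clones that passed upward, while the others had means of -0.13 to 0.08.

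The genes whose ratios followed those of clone A most closely were sought over the 26 replicates with a value of clone A, among 2180 clones that are complete there. Of these 388 have 1 symbol. The points share the array type and, apart from the dye-swap pair, the dye orientation, and the species differ in level, so the correlations are given as a description. Over all 2180 clones Pearson's r with clone A had a median of 0.07, with -0.55 at the 5th percentile and 0.65 at the 95th.

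The clones with 1 symbol that were most like clone A were 3 clones of METK1 (r = 0.83, 0.81 and 0.79) and 2 of MS (r = 0.81 and 0.80). METK1 is an S-adenosylmethionine synthase, and MS a methionine synthase. Among clones without a symbol, spots 156020, 150440 and 159463 had 0.85, 0.83 and 0.83. The least like were LOC102577804 and LOC102582035 (both -0.69) and LOC102577927 (-0.65).

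The likeness of METK1 was held by Nicotiana alone. On the 17 Nicotiana replicates its complete clones had r of 0.68 to 0.86 with clone A, apart from spot 150144 at -0.46. On the 9 potato replicates all 8 complete clones had r of -0.20 to 0.16. For the 5 MS clones r was 0.74 to 0.80 in Nicotiana and 0.65 to 0.85 in potato. The 2 replicates of clone A farthest from its median were MM replicate 1 of 1 day and N. sylvestris replicate 1 of 15 days. Without them r was 0.62 to 0.70 for MS. For METK1 it was 0.51 to 0.75, apart from spot 150144 at -0.24.

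The 5 clones most like clone A differed in size among themselves. In potato after 15 days the METK1 clones had means of 0.78 to 1.13 and the MS clones 0.47 and 0.24, where clone A had 0.25. After 1 day METK1 at spot 156267 had 0.26, as clone A did, and METK1 at spot 137014 had 0.08. In N. sylvestris after 15 days all 5 had means of 0.95 to 1.14, against 0.41 for clone A.

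**Figure D5:**
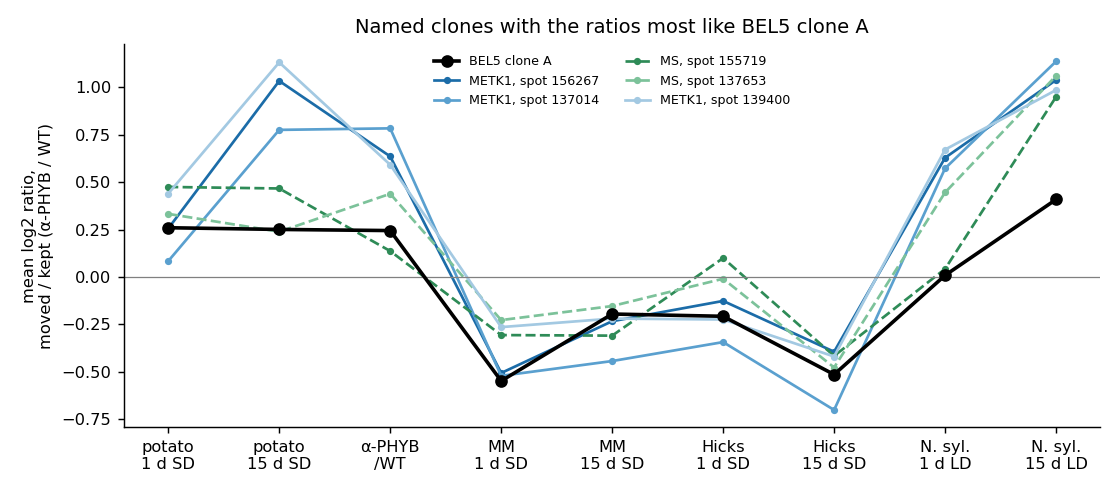
Mean log2 ratio of BEL5 clone A (black) and of the 5 most similar clones with 1 symbol in each comparison, moved over kept plants or α-PHYB over WT. All 6 lines lie above 0 in potato and below 0 in MM, and METK1 reaches higher ratios than clone A in potato after 15 days (0.78 to 1.13 against 0.25).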

How the data were processed

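Total RNA of leaves was hybridized to TIGR potato cDNA arrays with 2 colours, 28 arrays in all, which are 27 biological replicates and 1 dye-swap repeat, averaged with its partner (r = 0.784 as deposited, so its sign had been turned). The values deposited by the authors are log2 ratios, LOWESS-normalized, with 3 decimals; no intensities were used here. Ratios were taken as Cy3 over Cy5 and turned to moved over kept plants. The number of arrays limits the precision. Positions of the 905 annotated spot pairs give 15360 pairs by layout, whose values were averaged to clones (median r of 0.890). Gene symbols came from the platform annotation, which can be old and names 1 gene for 1630 of 1810 probes.

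Clones with a value in every replicate were tested in limma 3.58.1 (lmFit, eBayes) under R 4.3.3, using only the arrays of the comparison, at p of at most 0.05, Benjamini-Hochberg adjusted p of at most 0.1 and, for calls, a log2 ratio of at least 1. The methods' t-test is an alternative. Only the thresholds and the pooling of days follow the methods. The test was checked on simulated data. Replicate numbers were taken to pair the days where each r of deviations was above 0.1. This held in potato (0.410, 0.140 and 0.460), MM (0.541, 0.753 and 0.514) and N. sylvestris (0.856, 0.716 and 0.604). Hicks had 0.307, -0.069 and 0.320 and was not taken as paired, although only replicate 2 was below 0.1.

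Named genes are BEL5, the 5 clones with 1 symbol and the 3 with none of highest r with the first BEL5 clone, the 3 with 1 symbol of lowest r, and listed genes with a symbol. BEL5, these lists and the tests were chosen with earlier results of these data known. Alternatives were centring, scaling, a robust prior, missing values, single spots, the dye term, the dye-swap array, replicate blocks, single replicates left out and N. sylvestris turned.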

Additional observations from a re-analysis of the deposited data

Results flagged for a closer look

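In N. sylvestris, clone A of BEL5 had 1.13 in replicate 1 of the 15-day move to LD, far from the other 4 values of both days, which lay between -0.15 and 0.17. The gap was 0.752 of the whole range of the 5 values. Of 6 groups of 4 to 10 samples examined in this way, it was the 1 marked, and chance marks about 1 group in 20. The same array gave the highest clone B value, 2.01.

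Clone A differed between biotypes by a test of the difference itself in 3 comparisons of SD over LD plants. Potato minus Hicks was 0.765 after 15 days (limma adjusted p = 0.0842) and 0.616 over both days (adjusted p = 0.0103), and potato minus MM was 0.627 over both days (adjusted p = 0.0199). The potato arrays are shared. The difference from MM did not pass with the replicate number as a block (adjusted p = 0.143).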

How the results depend on the processing

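None of 16 BEL5 ratios tested was called with the limit of 1 on the log2 ratio, and by the limma test alone 1 passed, clone A in potato over both days. Of 291 values under alternatives, 260 kept their direction and their side of the threshold. Clone B in potato after 1 day (0.002) was -0.005 with arrays scaled, -0.023 with its first spot alone and -0.093 with the dye term subtracted, and after 15 days it passed with the dye term subtracted (-0.38, adjusted p = 0.0802). N. sylvestris after 15 days, as LD over SD, was -0.41 with its arrays taken the other way. The single-day differences between potato and MM were 0.63 with both days together.

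With the replicate number as a random block, which pairs the days, clone A in potato over both days still passed (0.26, limma adjusted p = 0.0341). MM had -0.37 (adjusted p = 0.409). Hicks, whose arrays were not taken as paired, passed (-0.36, adjusted p = 0.0736). Potato minus MM over both days did not pass (0.63, adjusted p = 0.143), in a fit added after seeing the data. The block changed no other call; the fixed block in potato minus MM on single days, also added later (0.81 and 0.45, adjusted p = 0.324 and 0.505), changed none.

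With 1 replicate left out, clone A ranged over 0.19 to 0.33 in potato over both days, 0.15 to 0.40 in α-PHYB, -0.82 to -0.40 in MM after 1 day, -0.55 to -0.28 in MM over both days and -0.088 to 0.072 for the potato day difference. Clone B ranged over -0.15 to 0.18 in potato after 1 day, -0.43 to -0.21 after 15 days, -0.289 to -0.063 over both days and -0.46 to -0.11 in α-PHYB. Potato minus MM ranged over 0.66 to 1.08 after 1 day for clone A and -0.26 to 0.19 after 15 days for clone B, potato minus Hicks over 0.66 to 0.88 after 15 days, and MM minus Hicks over -0.193 to 0.084 over both days. None of the following passed in any such fit: for clone A, potato after 15 days (0.15 to 0.36), MM after 15 days (-0.29 to -0.12), Hicks after 1 day (-0.34 to -0.04) and N. sylvestris after 15 days (0.05 to 0.64), and for clone B, MM after 15 days (-0.50 to -0.05). The cause was not tested. N. sylvestris after 1 day was not tested, since replicate 1 of clone A had no value there.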
